A study of Mus musculus with 2 samples.

Results

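The 10 mouse genes described here encode the kinase mTOR (Mtor), the scaffold proteins that define its complexes (Rptor and Rictor), the GTPase that switches the growth complex on (Rheb), the inhibitor of that GTPase (Tsc1 and Tsc2) and 4 amino acid transport proteins (Slc7a5, Slc3a2, Slc1a5 and Slc38a2). They were chosen by gene symbol with no threshold on level, though earlier results of these data were known. All 10 were found among the 55536 genes of GENCODE release M21 in the deposited gene tables. Polyadenylated RNA came from activated regulatory T cells, a primary cell preparation labelled as derived from haematopoietic cells of the bone marrow. The donor was an adult male mouse aged 4 months of the strain Foxp3CreERT2 x Rosa26YFP, in which Foxp3 drives a Cre recombinase that is active only with tamoxifen and the Rosa26 locus holds a yellow fluorescent reporter. Technical replicates 1 and 2 of biological replicate 1, called library 1 and library 2 below, make up 1 group of 2 libraries with fragments of 100 to 300 bases. No other condition was compared. Whether tamoxifen was given, how the cells were sorted or activated and how many animals were pooled are not stated in these sources.

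mTOR is a protein kinase that works in separate complexes. With raptor, the product of Rptor, it forms mTOR complex 1, which promotes protein synthesis and restrains autophagy when amino acids and growth factors are present. With rictor, the product of Rictor, it forms mTOR complex 2, which phosphorylates Akt. Amino acids bring complex 1 to the lysosome through the Rag GTPases, where Rheb activates it, and the Tsc1 and Tsc2 proteins keep Rheb inactive. Activated T cells take up leucine and glutamine through the transporters described here, and in mouse regulatory T cells raptor is known to be needed for suppressive function.

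The libraries held 15076048 and 14635787 estimated gene reads. The 5 regulatory T cell markers ran from 22.4 TPM for Foxp3 to 468 TPM for Ikzf2 and 579.5 TPM for Tnfrsf18, with Il2ra at 239 TPM, as means of both libraries. TPM estimates the share that a gene's transcripts make of all transcripts, corrected for their length, on a scale with a fixed sum. The 5 T cell markers ran from 212 TPM for Cd4 to 1073 TPM for Lck, 1100.5 TPM for Cd3g and 2745 TPM for Trac, and the 5 activation markers from 17.0 TPM for Mki67 to 293 TPM for Tigit, 452 TPM for Icos and 614 TPM for Tnfrsf4. The labelled cell type thus matched its defining markers. Of 22 markers of other cells, 20 were under 10 TPM in both libraries and 11 were under 1 TPM in both, among them Cd14, Ncr1 and Cxcl12, which had no estimated reads. The highest was the B cell immunoglobulin gene Ighm, with 679 and 760.1 TPM in libraries 1 and 2, while the next B cell markers were Cd79a at 1.48 and Ms4a1 at 0.530 TPM. Of the cytotoxic and natural killer cell markers, Cd8b1 averaged 12.4, Prf1 5.72 and Klrb1c 1.54 TPM. Apart from Ighm, markers of other lymphocytes were far below those of T cells. Myeloid markers were highest for Cd68 at 2.53, Lyz2 at 1.72 and Itgam at 0.580 TPM. Red cell and platelet markers were at 6.80 TPM for Hba-a2, 5.50 for Hbb-bs, 0.235 for Pf4 and 0.190 for Itga2b, and the stromal and epithelial markers Epcam and Col1a1 were at 1.18 and 0.260 TPM. The part of other cells in the levels below was not tested, and in such bulk RNA fewer cells of a type and less RNA per cell cannot be told apart.

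All 10 genes were expressed, here meaning 1 TPM or more in both libraries, a level that 23.9% of all genes and 46.2% of the 22028 protein-coding genes reached. They spanned a 25.03-fold range of mean TPM, with the glutamine transporter Slc1a5 highest and the leucine transporter Slc7a5 lowest. At 10 TPM or more in both libraries stood 6 of the 10, against 29.5% of protein-coding genes, and at 100 TPM or more stood 1, against 5.25%. The median log2(TPM + 1) of the 10 was 3.97 ± 0.069 (SD, n = 2 technical libraries), beside 0.67 for all protein-coding genes and 4.25 for the 10171 protein-coding genes that were expressed. The set therefore lay near the middle of the expressed genes on this scale. Its summed level was 320.3 TPM in library 1 and 329.96 TPM in library 2. Every SD below is over the same 2 technical libraries and holds no variation between animals.

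**Figure D1:**
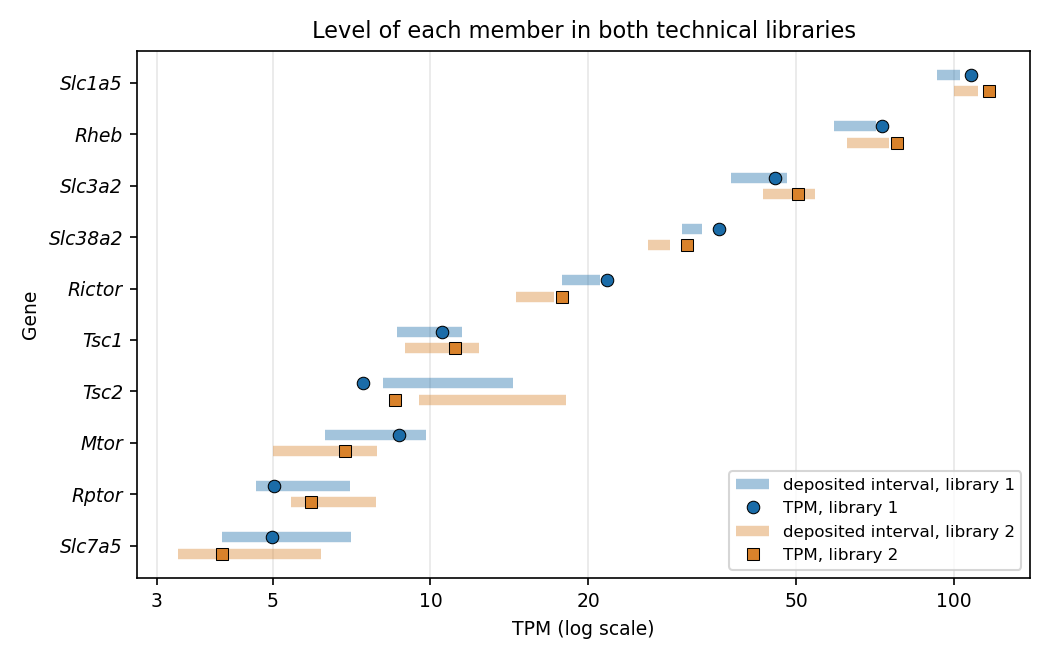
TPM (log axis) of the 10 genes in library 1 (circles) and library 2 (squares), with the interval deposited for the posterior estimate of TPM as a bar. Slc1a5 stands highest at 112 TPM and Slc7a5 lowest at 4.49 TPM, and Tsc2 lies below its interval in both libraries.

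Of the kinase and its scaffold proteins, Rictor had the highest level and Rptor the lowest. Mtor (chr4:148448611-148557683, plus strand, coordinates on mm10), the kinase shared by both complexes, had 8.72 TPM in library 1 and 6.88 TPM in library 2, from 414 and 333 estimated reads. Its mean of 7.80 ± 1.30 TPM stood at the 28.0 percentile of expressed protein-coding genes, so the catalytic subunit was among the lower expressed genes of these cells. Rptor (chr11:119602905-119899576, plus strand), the scaffold that brings substrates to complex 1, had 5.02 and 5.91 TPM in libraries 1 and 2, from 285 and 348 estimated reads. Rictor (chr15:6708379-6800401, plus strand), the scaffold of complex 2, had 21.8 and 17.8 TPM from 1459 and 1217 estimated reads. Rictor was thus above Mtor and Rptor in each library. The TPM ratio of Rptor to Rictor was 0.230 in library 1 and 0.332 in library 2, with a mean of 0.281 ± 0.072, and that of Mtor to Rictor was 0.400 and 0.386. Transcripts annotated as coding made 72.6% and 85.6% of Mtor TPM in libraries 1 and 2, but 40.6% and 45.1% of Rictor TPM. The gap between Mtor and Rictor was therefore smaller on summed coding transcripts. That sum for Mtor included Mtor-201, of only 1003 bases, with 2.91 and 2.95 TPM. The full-length Mtor-202 had 3.42 and 2.95 TPM, against 8.85 and 8.03 TPM for the coding Rictor-201, so between these the gap was not smaller. Whole-number counts per annotated length gave a ratio of Rptor to Rictor of 0.487, also below 1. In those counts Mtor had 315 in library 1 and 239 in library 2, and Rictor 397 and 283. Their longest coding transcripts have 8564 and 9312 bases, so Mtor and Rictor were much closer there than by TPM.

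The estimate of Rptor rested on transcripts annotated as not coding for the full protein. Rptor-211, annotated as a target of nonsense-mediated decay, the pathway that degrades messages with an early stop codon, took 48.9% of the gene's TPM in library 1 and 62.0% in library 2, with 185 and 261 estimated reads. The retained-intron transcript Rptor-210 followed with 64.6 and 44.8 reads. The 2 transcripts annotated as protein coding, Rptor-201 of 6594 bases and Rptor-202 of 515 bases, had 0 reads in both libraries. Rptor-211, of 6138 bases, skips exon 10 of Rptor-201 (chr11:119811945-119812020), whose 76 bases are not a multiple of 3. The lengths of Rptor-201 and Rptor-211 differ by more than this exon, so they also differ elsewhere. The sequences below show the coding exon joined in Rptor-201 and the junction without it in Rptor-211. This is a place where the annotated coding message differs from the transcript that took the most reads. Its part in the division of reads was not tested. They are read 5′ to 3′ on the plus strand of GRCm38, the assembly also called mm10, from GENCODE M21 transcripts, with the 76 bases of exon 10 in capitals and 25 coding bases on either side.
Rptor-201: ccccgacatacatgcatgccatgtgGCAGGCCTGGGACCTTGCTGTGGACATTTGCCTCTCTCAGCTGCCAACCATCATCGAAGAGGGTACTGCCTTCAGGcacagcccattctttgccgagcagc
Rptor-211: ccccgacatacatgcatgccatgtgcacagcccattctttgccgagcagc
The longer stretch is also held by Rptor-203, Rptor-205 and Rptor-210, which are annotated with a retained intron, and the shorter by Rptor-209. Every window of 50 bases in Rptor-201, the length of the reads, also occurs in another Rptor transcript, whereas Rptor-211 has 169 windows of its own. The deposited estimate of 0 reads for Rptor-201 therefore rests on no sequence found in Rptor-201 alone.

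The GTPase Rheb was far above its inhibitor. Rheb (chr5:24802823-24842624, minus strand) had 72.9 TPM in library 1 and 77.6 TPM in library 2, from 1127 and 1206 estimated reads. Its mean of 75.3 ± 3.33 TPM stood at the 83.6 percentile of expressed protein-coding genes. Its relative Rhebl1, which can also activate mTOR complex 1, was at 7.82 TPM, so that the ratio of Rhebl1 to Rheb was 0.0916 and 0.115. Tsc1 (chr2:28641228-28691167, plus strand), which stabilises the inhibitory complex, had 10.5 and 11.2 TPM from 362 and 351 estimated reads. Tsc2 (chr17:24595816-24632630, minus strand), which holds the domain that makes Rheb hydrolyse GTP, had 7.44 and 8.55 TPM from 328 and 359 estimated reads. Both subunits of the inhibitor were low beside Rheb. The TPM ratio of Rheb to Tsc2 was 9.80 in library 1 and 9.08 in library 2, and that of Rheb to Mtor was 8.36 and 11.3. By the deposited posterior mean, Rheb had 64.97 and 68.72 TPM and Tsc2 11.12 and 13.52 TPM, a smaller gap than by the TPM used here. Tbc1d7, the remaining subunit of the Tsc complex, was at 12.5 ± 2.39 TPM, or 1.03 and 1.27 times Tsc1.

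Which of the Tsc genes was higher could not be settled from these tables. The TPM ratio of Tsc2 to Tsc1 was 0.709 and 0.766, with a mean of 0.737 ± 0.041. It turned round to 1.18 with estimated reads divided by the annotated length, to 1.82 with whole-number counts per annotated length and to 3.56 with coding transcripts only. The authors' posterior mean for Tsc2 was 11.1 TPM in library 1 and 13.5 TPM in library 2, which is 1.49 and 1.58 times its TPM, and the TPM of Tsc2 lay below the deposited interval in both. Tsc2 lies tail to tail with Pkd1, a gene on the opposite strand that overlaps it and had 575 and 646 estimated reads. The labels used here do not say whether the libraries keep strand, and the part of Pkd1 reads in the level of Tsc2 was not tested. The most abundant Tsc1 transcript by TPM was Tsc1-211, a target of nonsense-mediated decay, in library 1 (42.1% against 14.4% in library 2) and Tsc1-210, with a retained intron, in library 2 (21.1% in library 1 against 35.8%). By estimated reads the coding Tsc1-202 led in both, with 139 and 114.

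The transport proteins differed most in level. Slc1a5 (chr7:16781340-16798274, plus strand), the sodium-dependent carrier ASCT2 that exchanges glutamine and other neutral amino acids, had 107.8 TPM in library 1 and 116.7 TPM in library 2, from 3044 and 3146 estimated reads. Its mean of 112 ± 6.29 TPM stood at the 89.3 percentile of expressed protein-coding genes, the highest of the 10. Slc38a2 (chr15:96687392-96699730, minus strand), the sodium-coupled carrier SNAT2 for small neutral amino acids, had 35.5 and 30.9 TPM from 2100.0 and 1733 estimated reads. The TPM ratio of Slc38a2 to Slc1a5 was 0.329 and 0.265, with a mean of 0.297 ± 0.045. It was 0.731 with coding transcripts only and 0.195 with whole-number counts per annotated length, below 1 in each case. Its relative Slc38a1, a glutamine carrier, was at 42.2 TPM in library 1 and 49.9 TPM in library 2, or 1.19 and 1.62 times Slc38a2. Slc1a5 and Slc38a2 thus held ranks 1 and 4 among the 10.

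The heavy and light chains of the leucine transporter were not at matched levels. Slc3a2 (chr19:8706882-8723369, minus strand) encodes the heavy chain CD98, which carries its light chains to the cell surface, and had 45.6 TPM in library 1 and 50.4 TPM in library 2, from 749 and 814 estimated reads. Slc7a5 (chr8:121881150-121907694, minus strand) encodes LAT1, the light chain that imports leucine and other large neutral amino acids, and had 4.98 and 3.99 TPM from 201 and 162 estimated reads. Its mean of 4.49 ± 0.70 TPM stood at the 16.6 percentile of expressed protein-coding genes. The TPM ratio of Slc3a2 to Slc7a5 was 9.15 in library 1 and 12.6 in library 2, with a mean of 10.9 ± 2.46, and it was 5.47 with estimated reads per annotated length and 16.3 with whole-number counts per annotated length. Slc7a6, the light chain y+LAT2 that also pairs with CD98 and exchanges cationic for neutral amino acids, was at 19.8 and 25.2 TPM, or 3.98 and 6.31 times Slc7a5. The other CD98 light chains measured, Slc7a7, Slc7a8, Slc7a10 and Slc7a11, averaged 0.375, 0.085, 0.930 and 0.195 TPM. Slc7a6 was therefore the most abundant light chain message here, and the ratio of Slc3a2 to the sum of Slc7a5 and Slc7a6 was 1.84 and 1.73. Slc7a5 lies within the span of Gm20388 on the opposite strand, which had 362 and 398 estimated reads, and the part of those reads in its level was not tested.

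In order of mean TPM the genes were Slc1a5, Rheb, Slc3a2, Slc38a2, Rictor, Tsc1, Tsc2, Mtor, Rptor and Slc7a5. The values of the 2 libraries were apart for each pair of neighbours in this order except Tsc2 and Mtor. The deposited intervals, whose level of confidence the headers do not state, overlapped between these and between Tsc1 and Tsc2, Mtor and Rptor, and Rptor and Slc7a5. They belong to the posterior estimate, and TPM lay above them in both libraries for Slc1a5, Rheb, Slc38a2 and Rictor. By whole-number counts per annotated length the first 4 and the last 2 genes held their places, while Tsc2 moved to rank 5, Rictor to 6, Mtor to 7 and Tsc1 to 8.

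The share of each gene's reads that fell on transcripts annotated as protein coding set the genes apart from each other, a description chosen after the transcript values were seen. It was 0% in both libraries for Rptor, 38.4% in library 1 and 32.3% in library 2 for Tsc1, and 41.2% and 44.7% for Slc1a5. These 3 of 10 genes were under 50% in both libraries, against 10.02% of the 7214 protein-coding genes with 100 or more reads in each library and at least 1 transcript of another class, and a share of 0% was found in 0.125% of those genes. Rictor had 69.7% and 71.5% and Rheb 72.1% and 78.8%. Slc38a2, Tsc2, Slc3a2, Mtor and Slc7a5 had 84.5% or more in both. The median over the 10 was 79.1% in library 1 and 81.6% in library 2, beside 89.1% and 89.9% over the 7214 genes. Retained-intron transcripts took most of the remainder wherever there was one, except for Rptor, where transcripts annotated for nonsense-mediated decay did.

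**Figure D2:**
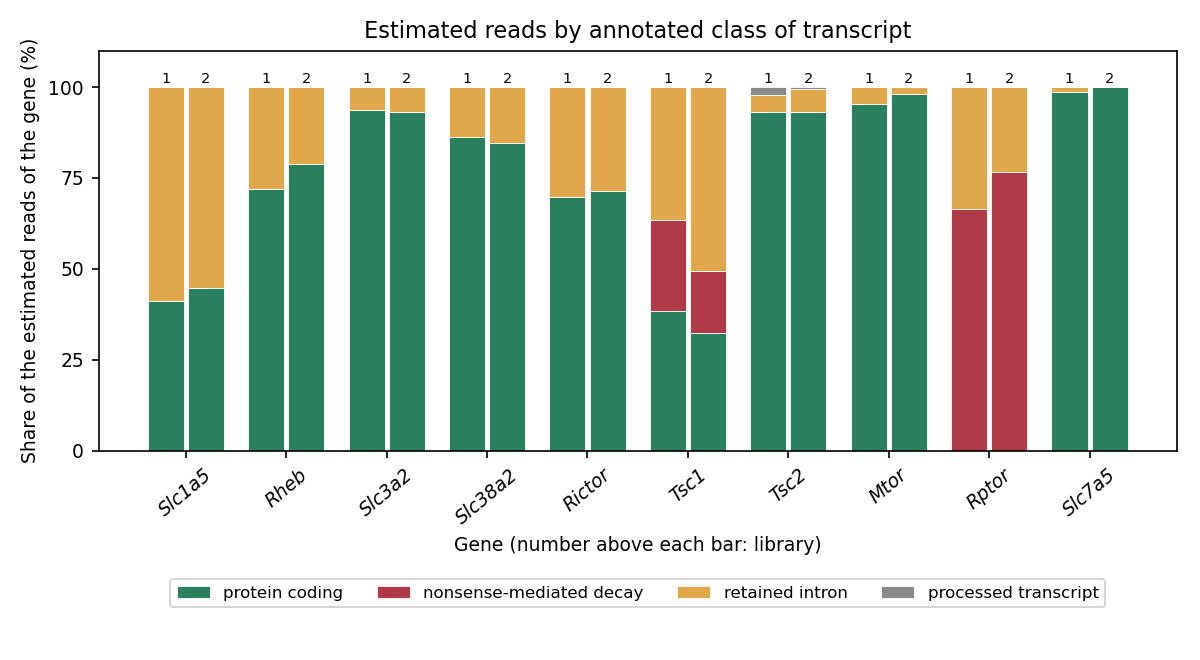
Share of each gene's estimated reads (%) on transcripts of each annotated class, with library 1 left of library 2 for each gene. The coding share is 0% for Rptor in both bars and 98.7% and 100% for Slc7a5.

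Slc1a5 was the highest gene of the set, yet its leading transcript was not the coding one. The retained-intron transcript Slc1a5-202 had 44.0% of the gene's TPM in library 1 and 42.0% in library 2, from 1624 and 1582 estimated reads. The coding transcript Slc1a5-201 had 34.6% and 38.0%, from 1255 and 1407 reads. Slc1a5-202 keeps intron 7 of Slc1a5-201 (chr7:16795953-16796023), a short intron of 71 bases. Slc1a5-202 has 2807 bases and Slc1a5-201 has 2764, which differ by less than this intron, so the transcripts also differ elsewhere. The sequences below, from the same source and on the plus strand, show the joined coding bases of Slc1a5-201 and the same place in Slc1a5-202. The intron is in capitals. This is a place where the most abundant transcripts of the set's highest gene differ.
Slc1a5-201: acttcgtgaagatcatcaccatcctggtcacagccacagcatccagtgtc
Slc1a5-202: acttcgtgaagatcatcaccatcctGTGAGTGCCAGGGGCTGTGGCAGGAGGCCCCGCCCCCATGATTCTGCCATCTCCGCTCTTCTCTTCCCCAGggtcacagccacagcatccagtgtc
Slc1a5-202 alone holds the longer stretch, and the shorter is shared with Slc1a5-204. Slc1a5-202 had 119 windows of 50 bases found in no other transcript of the gene and Slc1a5-201 had 28, so the division of reads between them rests on few bases.

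For the remaining genes a coding transcript led in both libraries by TPM and by reads. Slc38a2-201 took 89.1% and 87.8% of its gene's TPM, and Slc7a5-201 took 92.7% and 100%. Mtor-202, the full-length message of 8564 bases in 58 exons, had 361 and 294 of the Mtor reads. Mtor-201, with 1003 bases and 4 windows of its own, had only 34.4 and 32.9 reads but 33.4% and 42.8% of the gene's TPM, since TPM divides by length. Rictor-201 had 40.6% and 45.1% of TPM and 1017 and 871 reads, ahead of the retained-intron Rictor-202 with 275 and 213 reads. Rheb-201 had 51.8% and 60.2%, ahead of Rheb-202, a short transcript with a retained intron, at 44.4% and 37.0%. Slc3a2-201 led at 35.2% and 47.4%, with the coding Slc3a2-207 at 34.98% and 20.8%. Tsc2-203 had 25.6% and 26.5% of TPM and Tsc2-201 had 25.6% and 23.6%, although Tsc2-201 has no window of its own. In all, libraries 1 and 2 shared their leading transcript for 9 of 10 genes by TPM, with Tsc1 the exception, and for 10 of 10 by estimated reads.

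**Figure D3:**
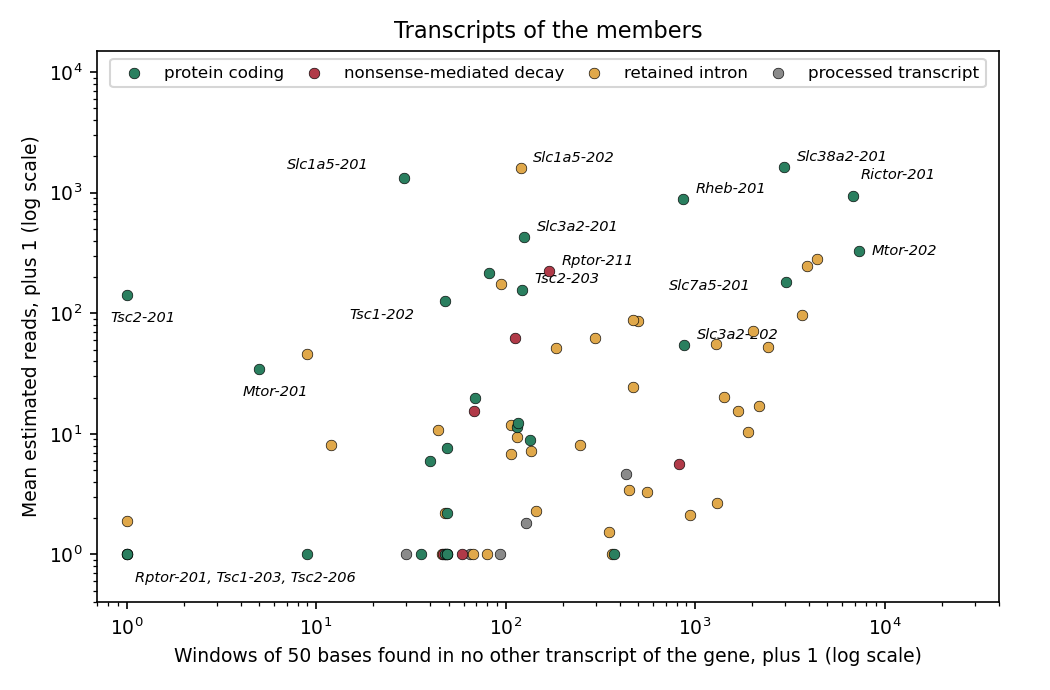
Each point is 1 annotated transcript of the 10 genes, placed by its number of 50-base windows found in no other transcript of its gene and by its mean estimated reads over both libraries, each plus 1 on log axes and coloured by class. Rptor-201 sits at 0 windows and 0 reads, Tsc2-201 at 0 windows with reads, and Rptor-211 at 169 windows.

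The technical libraries were then compared gene by gene, which compares these libraries and not conditions. An exact two-sided binomial test on rounded estimated reads, with Benjamini-Hochberg adjustment over 17271 genes, called 4 of the 10 genes at an adjusted p under 0.05, while it called 24.3% of all genes tested. The adjusted exact p was 1.14e-05 for Slc38a2, whose log2 ratio of library 1 over library 2 was 0.23. Rictor had a log2 ratio of 0.22 with an adjusted exact p of 0.00101, and Mtor 0.27 with an adjusted exact p of 0.0481. These 3 were higher in library 1, as were 11.6% of all genes. Rptor was lower in library 1, as were 12.7% of all genes, with a log2 ratio of -0.33 and an adjusted exact p of 0.0230. The other 6 were not called, with log2 ratios of -0.09 for Slc1a5, -0.14 for Rheb, -0.16 for Slc3a2, -0.17 for Tsc2, 0.27 for Slc7a5 and 0.0017 for Tsc1, and adjusted exact p from 0.0561 for Slc1a5 to 1 for Tsc1.

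By estimated reads the largest difference in size among the 10 was thus that of Rptor, whereas in the whole-number table it was that of Rictor, with a log2 ratio of 0.49 beside 0.40 for Mtor and -0.22 for Rptor. The binomial test covers counting error only. The edgeR exact test with a dispersion of 0.01, which allows further spread between libraries, called none of the 10 and 2.85% of all genes, and 0 of the 10 had an unadjusted p under 0.05 there. Over the 10 genes, 5 ratios were above 0 and 5 below, and the median log2 ratio was -0.044 beside 0.0060 over all genes tested. In the whole-number count table Slc7a5 had 40 counts in library 1 and 49 in library 2, so its ratio turned to -0.29, and that of Tsc1 to -0.044, with neither called in either table. The whole-number table called Mtor and Rictor but not Slc38a2 (adjusted exact p = 0.712) or Rptor (adjusted exact p = 0.599). That table held 3478224 counts in library 1 and 3475360 in library 2, against 15076048 and 14635787 estimated reads. Estimated reads per whole-number count in library 1 ran from 1.31 for Mtor to 5.03 for Slc7a5. The part of this lower and uneven depth in the lost calls was not tested. The call for Mtor was lost with TMM library sizes (adjusted p = 0.0618) and without a filter on low counts (adjusted p = 0.0804). Calls were gained for Slc1a5 with TMM library sizes (adjusted p = 0.0258) and at a summed count of 50 or more (adjusted p = 0.0472), and for Rheb with TMM library sizes (adjusted p = 0.0463).

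**Figure D4:**
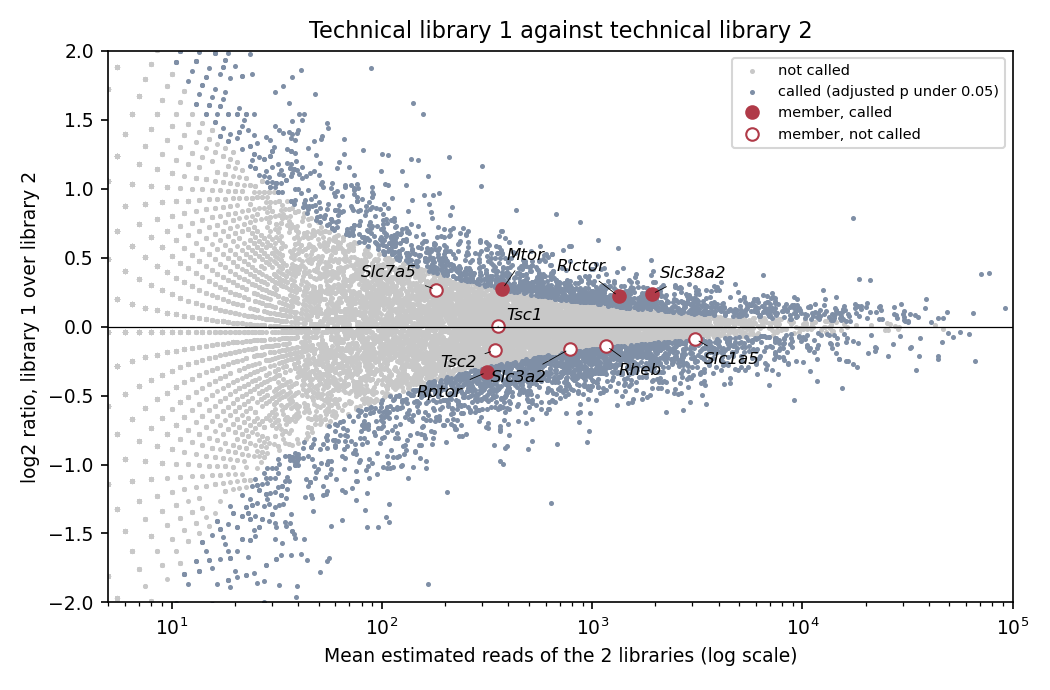
Log2 ratio of library 1 over library 2 against mean estimated reads (log axis) for 17271 genes, with the 10 genes in red, filled where called. Points beyond a log2 ratio of 2 in either direction or outside the plotted reads are not drawn. Slc38a2, Rictor and Mtor lie above 0 and Rptor at -0.33.

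Of 108 further genes of the pathway, 82 were expressed by the same definition and 54 at 10 TPM or more. Other subunits and partners of the mTOR complexes were expressed for 7 of 10, and their highest genes were Tti1 (16.9 TPM) and Telo2 (13.3 TPM), which help the kinase fold, and Mapkap1 (14.6 TPM), the complex 2 subunit Sin1. Mapkap1 was at 0.691 and 0.797 times Rictor. Mlst8, a subunit of both complexes, averaged 8.92 TPM, close to Mtor at 1.09 and 1.21 times its level. The complex 1 inhibitor Akt1s1, known as PRAS40, was at 2.24 and 1.26 TPM. Deptor, an inhibitor of both complexes, had 0.33 and 0.04 TPM from 18.2 and 4 reads, and the complex 2 subunits Prr5 and Prr5l averaged 0.070 and 0.785 TPM. The core subunits were thus present while these accessory messages were low or under 1 TPM.

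The lysosomal machinery that brings amino acid signals to complex 1 was expressed almost throughout. Of the Rag GTPases, the Ragulator scaffold and their regulators, 12 of 13 reached 1 TPM, led by the Ragulator subunits Lamtor5 (172 TPM), Lamtor2 (119.5 TPM) and Lamtor1 (96.9 TPM), with Fnip2 lowest at 0.260 TPM. The lysosomal arginine sensor Slc38a9, also a member of this list, had 22.7 and 27.1 TPM. The Rag GTPase Rraga had 44.6 TPM in library 1 and 26.1 TPM in library 2, a log2 ratio of 0.81. All 11 genes of the GATOR complexes, which set the state of the Rag GTPases, and of their KICSTOR anchor reached 1 TPM, from Wdr59 at 3.29 TPM to Seh1l at 33.8, Nprl2 at 36.5 and Sec13 at 106 TPM. Of 6 cytosolic amino acid sensors, 5 reached 1 TPM. Sesn1, a sestrin that restrains complex 1, was highest at 55.6 TPM, followed by the arginine sensor Castor1 at 34.1 and Sesn3 at 15.6 TPM. The leucine sensor Sesn2 was lowest, with 1.29 and 0.67 TPM.

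Kinases and regulators upstream of the complexes were expressed for 10 of 12 genes. Prkag1, a subunit of the energy sensor AMPK, was highest at 107 TPM, followed by Pdpk1, which phosphorylates Akt, at 33.8 TPM, and Akt2 at 31.5 TPM. Prkaa2, the AMPK catalytic subunit abundant in muscle, was lowest at 0.025 TPM, while the other catalytic subunit Prkaa1 was at 16.5 TPM. Of 17 outputs of mTOR signalling, 16 reached 1 TPM. The ribosomal protein Rps6, a substrate of S6 kinase, had 2306 TPM, Pdcd4, an inhibitor of translation that S6 kinase marks for degradation, 547 TPM, and the cap-binding protein Eif4e 247 TPM. The adaptor Grb10 had no estimated reads, which allows up to 0.123 TPM in library 1 and 0.130 TPM in library 2, while the whole-number table held 2 counts in library 1. The S6 kinase Rps6kb1 was at 42.6 TPM and the translation repressors Eif4ebp1 and Eif4ebp2 at 14.6 and 16.8 TPM. These are levels of messages and say nothing of phosphorylation, through which the pathway acts.

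Other amino acid transporters were expressed for 12 of 29, with a median log2(TPM + 1) of 0.47. The highest were Slc38a1 (46.1 TPM), Slc38a10 (25.5 TPM) and Slc7a6 (22.5 TPM), followed by the large neutral amino acid carrier Slc43a2 (14.1 TPM) and the cationic carrier Slc7a1 (8.88 TPM). Slc7a9, Slc1a1, Slc38a3, Slc38a4, Slc38a5 and Slc6a9 had no estimated reads in either library, which allows between 0.0980 and 0.187 TPM by gene and library, while the whole-number table held 1 count for Slc7a9 in library 2 and 1 for Slc38a5 in library 1. The closest relative of Slc1a5, the carrier Slc1a4, averaged 0.075 TPM. Of the transcription factor Atf4, which responds to amino acid shortage, and its targets, 9 of 10 reached 1 TPM. The highest were the folate enzyme Mthfd2 (109.6 TPM), the serine synthesis enzyme Phgdh (89.95 TPM) and Atf4 itself (56.8 TPM), and the lowest was Chac1 (0.025 TPM). Between the libraries the binomial test called 6 of the 15 transporters tested lower in library 1 and 1 higher, and 3 of the 9 tested genes of the Atf4 list lower and 0 higher, beside 12.7% lower and 11.6% higher of all genes.

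**Figure D5:**
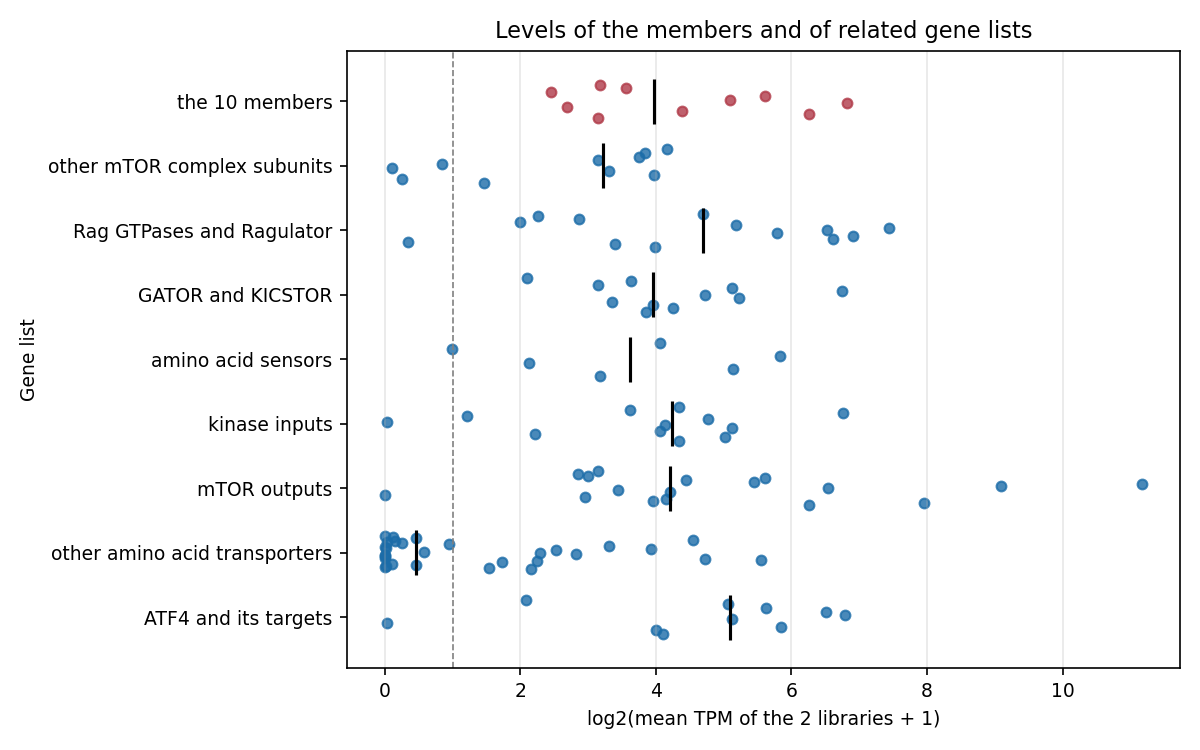
Log2 of mean TPM plus 1 for the 10 genes (red) and for each related gene list (blue), with the median of each list as a black bar and 1 TPM as a dashed line. The 10 genes all lie right of the line, whereas 17 of 29 other amino acid transporters did not reach 1 TPM in both libraries.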

How the data were processed

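Polyadenylated RNA of 1 group, 2 technical libraries of activated regulatory T cells, was analysed. Per the file headers the authors deposited, for genes and transcripts on mm10 with GENCODE M21, an expected count, TPM, FPKM (not used here), an isoform percent of the gene's TPM, and posterior TPM with interval bounds. A further deposited table holds a whole-number count per gene on GENCODE M4, with 3478224 counts in library 1 and 3475360 in library 2. The quantification tools and strandedness are not stated in the labels or headers. Read length, 50, was taken from length minus effective length. Rows that name no gene held 0.142% and 0.186% of reads and were left out of library sizes.

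The genes, lists and tests were chosen with earlier results of these data known. Every member was named, and of each other list at least its 3 highest genes and its lowest by mean TPM, except a marker that is not reported here. Levels are deposited TPM, described without a test. Expected counts were rounded, and genes with a summed count of 10 or more were tested between libraries with the binomial distribution (exact, two-sided), p-values being adjusted by Benjamini-Hochberg; log2 ratios add 0.5 to each count. Where no read was found, the TPM that 3 reads would give is the limit, covering counting error only. The test was run on simulated counts with counting error only, the spread it assumes, so this could not gauge further spread between libraries. Alternatives used edgeR 4.0.16 (TMM, exact test), DESeq2 1.42.0 size factors (R 4.3.3), other filters, pseudocounts and tables. Python 3.11.15, pandas 2.3.3 and scipy 1.17.1 were used. Transcripts, types and coordinates (1-based) came from GENCODE M21.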

Additional observations from a re-analysis of the deposited data

How the results depend on the processing

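At 10 TPM in place of 1 TPM, 6 of the 10 genes and 54 of the 108 pathway genes counted as expressed. The median log2 level of the 10 was 3.88 with a pseudocount of 0.1 and 4.06 with TPM rescaled without rRNA, mitochondrial and non-gene rows. With whole-number counts 2 of the 10 genes differed between libraries, and 0 did by the edgeR exact test with a dispersion of 0.01, where 0 had an unadjusted p under 0.05, while the binomial test called 4 and gave 7 an unadjusted p under 0.05. The whole-number table held 3478224 and 3475360 counts in libraries 1 and 2, so its calls were made at a lower depth. Over all genes the calls numbered 4198 in the main test, 3696 without a filter, 3798 at a summed count of 50 or more, 1085 in the whole-number table and 492 by edgeR. Their split was 2009 higher and 2189 lower in library 1, and it was 1858 and 2348 with TMM sizes and 2194 and 2039 with DESeq2 size factors. With estimated reads per annotated length the ratio was 1.18 for Tsc2 to Tsc1, a reversal, 5.47 for Slc3a2 to Slc7a5 and 0.368 for Slc38a2 to Slc1a5. With coding transcripts only it was 3.56 for Tsc2 to Tsc1, also reversed, 0.731 for Slc38a2 to Slc1a5 and 0 for Rptor to Rictor, whose coding transcripts had no reads. With whole-number counts per annotated length it was 1.82 for Tsc2 to Tsc1, reversed, 0.487 for Rptor to Rictor, 16.3 for Slc3a2 to Slc7a5 and 0.195 for Slc38a2 to Slc1a5. The log2 ratio between libraries changed sign for Tsc1 (-0.011 with TMM sizes, -0.044 in the whole-number table) and for Slc7a5 (-0.29 in the whole-number table). The causes were not tested. Of the other alternatives for single genes, 78 gave the same result, 8 moved a level or rank, 3 gained a call (Slc1a5 in 2, Rheb in 1) and 8 lost one. Either library alone moved each level and ratio by less than the SD of the 2, which holds by construction, and no count by over 1.5 times. No paired analysis was possible because there is 1 group of samples. With 2 technical libraries of 1 biological sample, no statement reaches beyond this preparation.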
